A study of Mus musculus with 18 samples.

Results

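The histone genes were followed in RNA bound to tagged ribosomes of mouse spinal cord. Members were taken by gene name, as every name starting with Hist1h to Hist4h, H2af, H3f3 or H1f, and names marked -ps as pseudogenes (4) were left out. The rule found 86 of the 38924 genes in the tables, and no measured value entered the choice. Of these, 69 carry Hist names and are called replication-dependent here, with 6 H1, 20 H2A, 18 H2B, 12 H3 and 13 H4 genes. The other 17 are variant histone genes, with 4 of H1, 10 of H2A and 3 of H3. The rule goes by name only, and the GENCODE M21 annotation lists the members Hist1h2aj, Hist1h2al and H3f3c as pseudogenes. It lists the identifier of Hist2h2bb as a long non-coding RNA. No library held a read of 3 replication-dependent genes and 1 variant gene.

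The study used RiboTag mice, in which Cre switches on a haemagglutinin (HA) tag on the ribosomal protein Rpl22, and an anti-HA antibody then brings down tagged ribosomes with their mRNA. Whole spinal cords of mice aged 8 weeks gave 18 libraries, and every mouse carried 1 RiboTag allele (Rpl+/-) on the mixed background B6;CASTxB6.129. The Cre P278KY mice (Rpl+/-;Chat+/-;P278KY+/-, 3 libraries) carried Chat-Cre, active in cells that use the cholinergic gene Chat, and the P278KY allele of Gars, which encodes glycyl-tRNA synthetase. The Cre WT mice (Rpl+/-;Chat+/-;P278KY+/+, 4 libraries) carried Chat-Cre without that allele. The NoCre P278KY mice (Rpl+/-;Chat+/+;P278KY+/-, 6 libraries) and the NoCre WT mice (Rpl+/-;Chat+/+;P278KY+/+, 5 libraries) had no Cre, so their libraries hold the RNA that came down without tagged ribosomes. Motor neurons are the main cholinergic cells of the spinal cord, but Chat-Cre also marks cholinergic interneurons and preganglionic neurons. The labels do not state sex.

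Histones package DNA into nucleosomes, each a spool of H2A, H2B, H3 and H4 closed by a linker histone H1. Replication-dependent histone genes lie in clusters and are mainly used in S phase, and their mRNAs end in a conserved stem-loop bound by the protein Slbp rather than in a poly(A) tail. Several of them also give polyadenylated mRNA in cells that no longer divide. Variant histone genes are used throughout the cell cycle, give polyadenylated mRNA and supply neurons, which do not divide, with replacement histones. The labels do not say whether the libraries were made from polyadenylated RNA, and RNA that ends in a stem-loop would be missed by such a selection.

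The stem-loops of the genes that carry the results below are shown because they set the class apart and because what follows them bears on which RNA can be counted. They were found by the stem-loop consensus in GENCODE M21 transcripts (GRCm38) and are printed 5′ to 3′ as 26 bases with the 16 bases of the loop and its stem in capitals.
Hist1h1c: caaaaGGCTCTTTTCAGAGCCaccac
Hist1h2be: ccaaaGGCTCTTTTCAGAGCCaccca
Hist1h1e: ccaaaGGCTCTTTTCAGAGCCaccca
Hist1h4d: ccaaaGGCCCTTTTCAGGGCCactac
Hist3h2a: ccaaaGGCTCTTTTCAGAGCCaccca
Hist4h4: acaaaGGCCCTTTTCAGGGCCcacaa
H2afx: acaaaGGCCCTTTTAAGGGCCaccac
These lie at chr13:23739507-23739532 on the plus strand for Hist1h1c, chr13:23585526-23585551 on the minus strand for Hist1h2be and chr13:23621777-23621802 on the minus strand for Hist1h1e. The others lie at chr13:23581945-23581970 on the plus strand for Hist1h4d, chr11:58955167-58955192 on the plus strand for Hist3h2a, chr6:136803993-136804018 on the minus strand for Hist4h4 and chr9:44335235-44335260 on the plus strand for H2afx.

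A stem-loop was found in 41 of the 62 replication-dependent genes with an M21 transcript and in 1 of 16 variant genes, H2afx, whose mRNA is known to be made in both forms. Some genes without a match have short annotated transcripts, such as Hist1h2bl and Hist1h2bn with 381 bases and Hist1h4k with 312. A stem-loop past the annotated end would be missed, so no match does not mean that a gene lacks one. The 41 genes used 7 different 16-base cores. In 20 of the 41 genes the annotated transcript ran on for more than 100 bases past the stem-loop, which the form cleaved after the stem-loop does not. That run was 840 bases in Hist1h1c, 1861 in Hist1h2be, 1153 in Hist1h1e, 770 in Hist1h4d, 1643 in Hist3h2a, 2445 in Hist4h4 and 822 in H2afx. The gene lengths in the deposited tables, which may rest on another annotation, were 1560 bases for Hist1h1c, the same as its M21 transcript, but 748 for Hist1h1e, against 1930 in M21, and 393 for Hist1h4d, against 1138. The counts of Hist1h1e and Hist1h4d therefore need not cover the run past the stem-loop. No match was found in the annotated transcript of Hist1h2bc, which had 1156 bases in M21, against a length of 736 in the deposited tables. A stem-loop in another form of its RNA would not be found by this search.

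Promoters are shown for Hist1h1c and Hist1h2be, which were lower in Cre P278KY libraries, and for Hist1h1e, a linker histone gene of the same cluster that did not pass the test there. The sequences are those of RefSeq (GRCm38.p6), the 250 bases before the start, 5′ to 3′ on the gene's strand, with the motifs found in capitals.
Hist1h1c: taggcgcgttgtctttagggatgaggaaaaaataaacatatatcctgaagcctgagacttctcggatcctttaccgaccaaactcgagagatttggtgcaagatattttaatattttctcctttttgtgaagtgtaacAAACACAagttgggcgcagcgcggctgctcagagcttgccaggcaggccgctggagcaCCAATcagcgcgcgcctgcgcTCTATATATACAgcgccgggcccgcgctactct
Hist1h1e: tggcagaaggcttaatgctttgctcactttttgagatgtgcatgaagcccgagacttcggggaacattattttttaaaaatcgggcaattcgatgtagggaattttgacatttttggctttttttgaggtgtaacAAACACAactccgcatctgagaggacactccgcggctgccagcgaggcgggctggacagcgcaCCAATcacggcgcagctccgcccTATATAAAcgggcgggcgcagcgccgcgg
Hist1h2be: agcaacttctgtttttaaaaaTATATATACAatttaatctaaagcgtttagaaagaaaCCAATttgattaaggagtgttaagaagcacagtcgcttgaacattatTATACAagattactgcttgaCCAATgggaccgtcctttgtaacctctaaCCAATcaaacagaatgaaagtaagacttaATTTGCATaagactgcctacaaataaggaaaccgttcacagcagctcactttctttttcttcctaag
They cover chr13:23738557-23738806 on the plus strand for Hist1h1c, chr13:23622559-23622808 on the minus strand for Hist1h1e and, for the lower of 2 RefSeq starts of Hist1h2be, chr13:23585971-23586220 on the minus strand. The motifs searched, on both strands and over the 300 bases around each start, were the H1 box (AAACACA), the octamer (ATTTGCAT), the CCAAT box (CCAAT) and a TATA element (TATANA), and matches may overlap. Hist1h1c held the H1 box 112 bases and the CCAAT box 54 bases before the start, and Hist1h1e held them 115 and 52 bases before it. On the gene's strand the first TATA element stood 31 bases before the start in Hist1h1c and 29 bases before it in Hist1h1e. Hist1h1c also had a match on the opposite strand 33 bases before its start. Hist1h2be held the octamer 67 bases before its start and 3 CCAAT boxes, and the window of its other RefSeq start held 3 CCAAT boxes and no octamer or TATA element.

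RefSeq promoters were matched for 61 replication-dependent and 14 variant genes. The H1 box was found in 5 of 6 H1 genes and in 14.8% of all replication-dependent promoters, against 8.22% of the promoters of 27025 genes. The octamer was found in 7 of 16 H2B and 7 of 17 H2A promoters, which made 23.0% of the class, against 1.97% of all genes. The CCAAT box stood in 85.2% and the TATA element in 80.3% of replication-dependent promoters, against 41.1% and 27.9% of all genes. Among variant promoters the CCAAT box stood in 64.3% and the TATA element in 7.14%. These matches are a description of the letters and not of binding.

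Cre P278KY libraries totalled 15461520 to 18944790 expected counts, Cre WT libraries 14659535 to 24028692, NoCre P278KY libraries 9876884 to 14450182 and NoCre WT libraries 8177837 to 11480488. Mitochondrial ribosomal RNA took 2.16% to 4.88% and 1.36% to 3.36% of the counts in Cre P278KY and Cre WT libraries, and 24.2% to 38.6% and 31.8% to 53.8% in NoCre P278KY and NoCre WT libraries, so the NoCre values rest on fewer reads. Chat, which marks the targeted cells, had 97.8 to 120 counts per 1000000 (CPM) in Cre P278KY and 80.9 to 169 CPM in Cre WT, against 1.93 to 3.58 CPM in NoCre P278KY and 5.87 to 12.9 CPM in NoCre WT. The library descriptions form 2 sets, in which index sequences and sample numbers start again. Set 1 holds all Cre P278KY libraries, Cre WT 1 and 2, NoCre P278KY 1 to 3 and NoCre WT 1 and 2, and set 2 holds the other 8. Xist, the RNA of the inactive X chromosome, was at 0.0 to 148 CPM in the Cre P278KY libraries, all of set 1. It was at most 0.311 CPM in the Cre WT libraries and 0.666 CPM in the NoCre libraries of set 1, and in set 2 it was at 40.1 to 59.3 CPM in Cre WT and 323 to 1185 CPM in NoCre libraries. In the Cre WT and NoCre libraries set and Xist level therefore go together, and their effects cannot be told apart. Values within a set are given beside the main results where its libraries allow. Within set 1 they compare Cre P278KY libraries that reach 148 CPM of Xist with Cre WT libraries at no more than 0.311 CPM. Because the samples are bulk, fewer cells of a type and less RNA per cell cannot be told apart.

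Sequence sharing limits what can be said of single histone genes. The authors' expected counts divide reads that match several genes, and 84.6% of the nonzero values of replication-dependent genes (714 of 844) were not whole numbers, against 40.3% (83 of 206) for variants. The share was 59.3% for the H1 genes, 83.9% for H2A, 87.6% for H2B, 99.3% for H3 and 80.7% for H4. Values of Hist1h1c, Hist1h2bc, Hist1h2be, Hist1h1e, Hist2h2aa1, Hist4h4, H2afz and H3f3a were not whole in any of the 18 libraries, so each of them includes reads assigned by estimate. Values of H1f0, H3f3b and Hist2h2be were whole in every library.

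In ribosome-bound RNA of Cre P278KY mice, 3 replication-dependent histone genes were lower than in Cre WT mice, and no variant histone gene passed the test. The 3 genes were Hist1h1c, a linker histone H1, and Hist1h2bc and Hist1h2be, which encode core histone H2B. Their levels were 3.87-fold to 5.71-fold lower. The comparison asks how the P278KY allele changes the ribosome-bound RNA of Chat-Cre cells.

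Hist1h2bc had 5.50, 6.20 and 5.35 CPM in the Cre P278KY libraries, against 37.0, 42.8, 24.5 and 29.3 CPM in the Cre WT libraries. The groups did not overlap, and the lowest Cre WT library stood far above every Cre P278KY library. The log2 fold change was -2.51 (SE 0.24), a 5.71-fold lower level, with an adjusted p of 0.000521 in edgeR's quasi-likelihood test over 14717 genes. These values rest on 77.7 to 152 estimated reads in Cre P278KY and 519 to 804 in Cre WT libraries.

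Hist1h1c had 4.60, 6.49 and 5.35 CPM in the Cre P278KY libraries, against 29.9, 26.3, 18.5 and 20.0 CPM in the Cre WT libraries. Here too the groups stood apart, and the 2 Cre WT libraries of set 1 were the highest. Its log2 fold change was -2.08 (SE 0.25), a 4.22-fold lower level, with an adjusted p of 0.00223. Estimated reads were 77.6 to 159 in Cre P278KY and 319 to 608 in Cre WT libraries.

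Hist1h2be had 1.37, 1.51 and 1.92 CPM in the Cre P278KY libraries, against 5.73, 4.62, 7.22 and 7.32 CPM in the Cre WT libraries. The groups did not overlap. Its log2 fold change was -1.95 (SE 0.34), a 3.87-fold lower level, with an adjusted p of 0.0163. This call was the least stable of the 3: leaving out Cre P278KY 1, 2 or 3 gave adjusted p-values of 0.112, 0.0974 and 0.0598, and scaling by library size alone gave 0.0882.

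**Figure D1:**
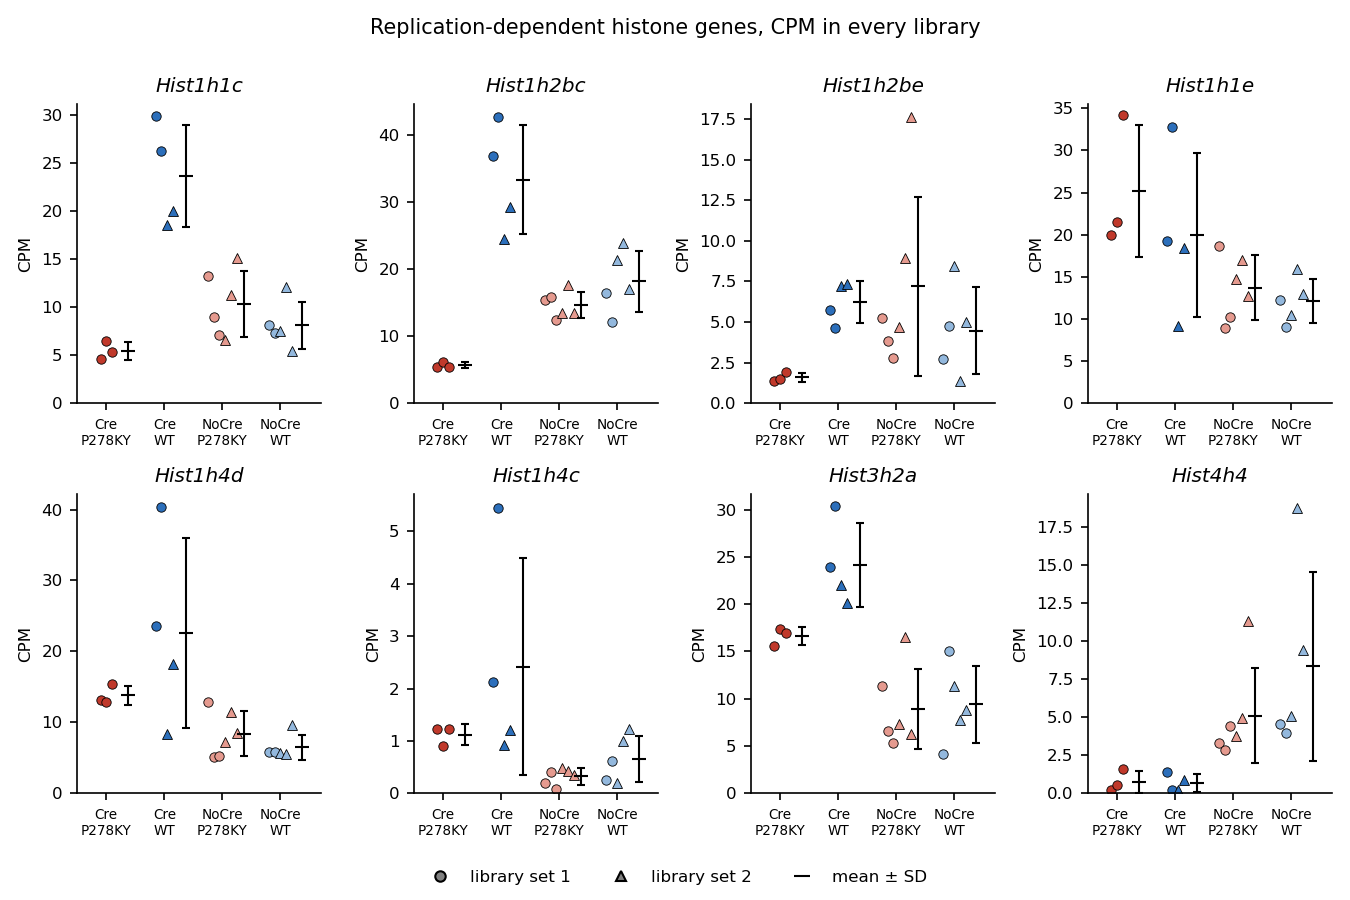
Levels of 8 replication-dependent histone genes in each library (CPM, TMM scaling), with the groups from left to right as Cre P278KY, Cre WT, NoCre P278KY and NoCre WT. Circles are libraries of set 1, triangles of set 2, and bars give the mean ± SD; Hist1h2bc in the Cre P278KY libraries, at 5.35 to 6.20 CPM, lies below every library of the other groups, and Hist1h1c, at 4.60 to 6.49 CPM, below every Cre WT and NoCre P278KY library.

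The other linker histone genes of the class did not pass. Hist1h1e, which encodes another widely used linker histone, had 19.9, 21.5 and 34.2 CPM in Cre P278KY, against 19.2, 32.8, 9.20 and 18.4 CPM in Cre WT. These ranges overlapped, and the log2 fold change of 0.38 had a 95% interval of -0.32 to 1.08 (adjusted p = 0.661), which does not reach the change of Hist1h1c. Hist1h1b, a linker histone best known from dividing cells, had 0.332, 0.245 and 0.686 CPM, against 1.62, 0.577, 0.549 and 1.38 CPM in Cre WT (log2 fold change -1.32, SE 0.68, adjusted p = 0.385). Hist1h1a and Hist1h1d averaged 0.917 and 0.385 CPM in Cre P278KY and 1.45 and 0.705 CPM in Cre WT, with adjusted p-values of 0.785 and 0.683.

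Among the core histone genes, Hist2h2aa1, an H2A gene, came nearest after the 3 genes that passed. It had 4.45, 4.69 and 5.63 CPM in Cre P278KY, against 11.4, 14.8, 9.36 and 6.02 CPM in Cre WT. The groups did not overlap, but the log2 fold change of -1.03 (SE 0.30) had an adjusted p of 0.115. Hist3h2a, an H2A gene outside the large cluster, had 15.6, 17.3 and 16.9 CPM, against 24, 30.3, 22.0 and 20.1 CPM in Cre WT, again without overlap (log2 fold change -0.50, SE 0.19, adjusted p = 0.223). Hist1h4d, which encodes H4, had 13.2, 12.9 and 15.4 CPM, against 23.6, 40.4, 8.41 and 18.2 CPM in Cre WT, and its groups overlapped (log2 fold change -0.66, SE 0.41, adjusted p = 0.474). Hist1h4h, another H4 gene, had a log2 fold change of -2.08 that was as large as that of Hist1h1c, but its SE of 0.89 left it at an adjusted p of 0.290. Hist4h4, an H4 gene on another chromosome, had 0.190, 0.530 and 1.58 CPM, against 1.43, 0.247, 0.213 and 0.861 CPM in Cre WT, and the groups overlapped (adjusted p = 0.968).

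Counted as a class, 24 of the 69 replication-dependent genes had enough counts to be tested between the Cre groups, of which 0 were higher and 3 lower, against 2.32% called among all genes tested and 1.11% called lower. The log2 fold change was below 0 in 21 of the 24, against 51.1% of all genes tested, and its median was -0.76, against -0.01 over all genes. At an unadjusted p under 0.05 there were 7 of the 24 and 2378 of the 14717. Of the 10 variant genes tested none passed in either direction, with 1 at an unadjusted p under 0.05, and their median log2 fold change was 0.14. DESeq2 called 0 of the variant genes as well.

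**Figure D2:**
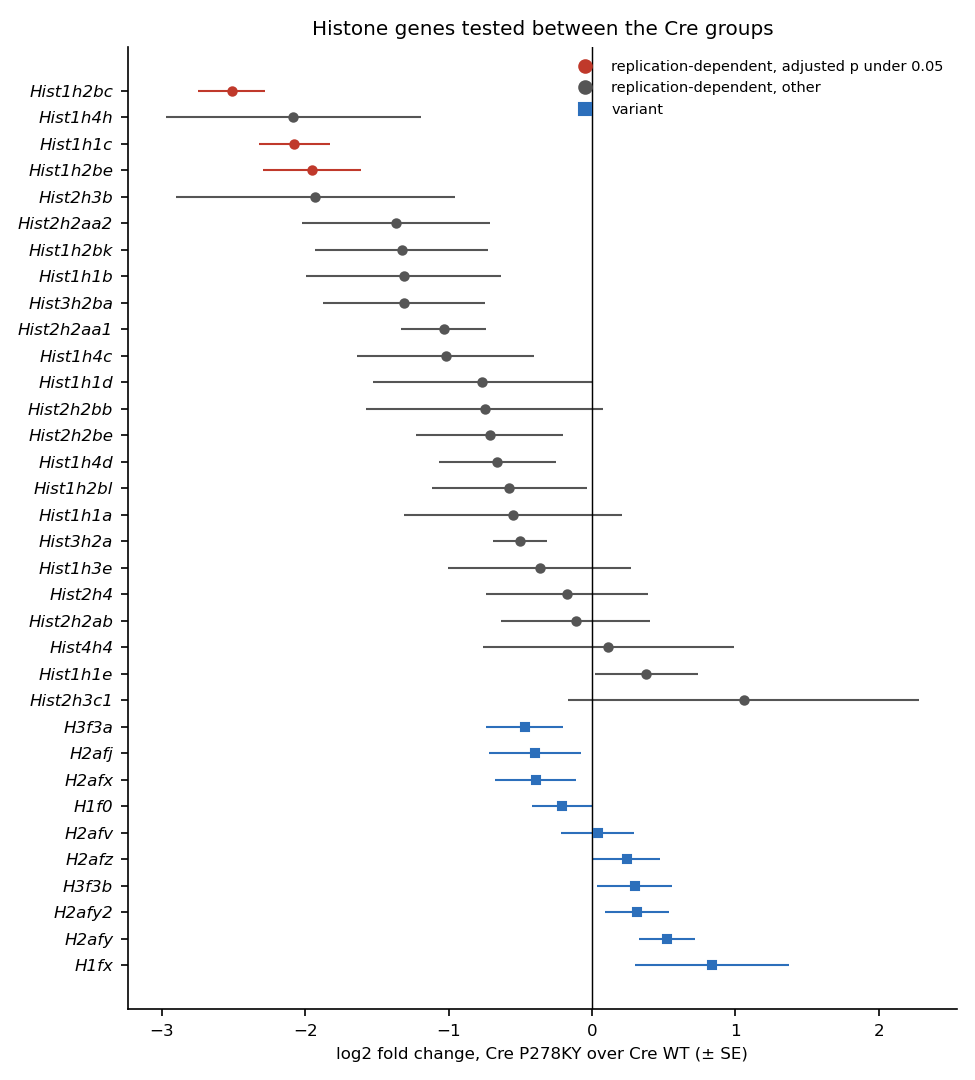
Log2 fold changes of Cre P278KY over Cre WT (points, lines ± SE) for the 34 histone genes tested, ordered by value within each class. The 3 red genes, from -2.51 to -1.95, passed the test; 21 of 24 replication-dependent genes lie left of 0, while the 10 variant genes (squares) lie from -0.47 to 0.84.

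Within library set 1, which holds all 3 Cre P278KY libraries and Cre WT 1 and 2, the 3 genes had the same direction and passed again. The log2 fold changes there were -2.73 for Hist1h2bc (adjusted p = 2.89e-05), -2.29 for Hist1h1c (adjusted p = 0.000216) and -1.63 for Hist1h2be (adjusted p = 0.0344). In that set 7 of 25 replication-dependent and 2 of 10 variant genes passed, against 9.1% of all 14753 genes called there. Besides the 3 genes these were Hist1h4d at -1.13, Hist2h2aa1 at -1.34, Hist3h2ba at -1.94, H2afx at -0.74 and H2afj at -0.84, all lower, and Hist2h3c1, which was higher. Hist2h3c1, an H3 gene, was at 0 CPM in both Cre WT libraries of set 1 and at 0.711, 2.37 and 4.46 CPM in Cre P278KY, and at 1.71 and 2.75 CPM in Cre WT 3 and 4. With 2 Cre WT libraries, the set 1 values rest on few libraries, and set 2 holds no Cre P278KY library.

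Marker genes of other cells that could come along were summed in the same libraries. Oligodendrocyte markers summed to 754, 892 and 1882 CPM in Cre P278KY, against 801, 1265, 4062 and 4453 CPM in Cre WT, so the 2 Cre WT libraries of set 2 held the most. Vascular markers summed to 34.2 to 74.0 CPM in Cre P278KY, against 35.5 to 222 CPM in Cre WT, and astrocyte markers to 555 to 1014 CPM, against 438 to 1477 CPM. Skeletal muscle markers summed to 7.75 to 14.4 CPM in Cre P278KY, against 26.6 to 143 CPM in Cre WT, without overlap. None of these 4 lists had a marker that passed the test or a marker without a read in a Cre group. Their median log2 fold changes were below 0, as was that of the replication-dependent histone genes. The median was -1.53 for oligodendrocyte markers, with 7 of 14 at an unadjusted p under 0.05, and -2.71 for skeletal muscle markers, with 9 of 10. It was -1.17 for astrocyte markers (2 of 12) and -1.18 for vascular markers (1 of 11). Within set 1 the oligodendrocyte, astrocyte and vascular sums of Cre P278KY and Cre WT libraries overlapped. The skeletal muscle sums there did not, at 7.75 to 14.4 CPM in Cre P278KY against 26.8 and 143 CPM in Cre WT. The part of these cells' RNA in the histone values was not tested. Cholinergic motor neuron markers summed to 1652 to 2145 CPM in Cre P278KY, against 1981 to 3479 CPM in Cre WT, and 2 of 15 were lower, with their part in the histone values also not tested.

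Hist1h1c and Hist1h2bc, the members with the smallest adjusted p in this comparison, held a lower share of the class in Cre P278KY. As they were picked from the same comparison, the share describes the calls and is not separate evidence. Hist1h1c and Hist1h2bc together made 11.2 ± 1.36 CPM in Cre P278KY (SD, n = 3) and 57.1 ± 12.9 CPM in Cre WT (SD, n = 4). That was 9.50% to 13.3% of all replication-dependent histone RNA in Cre P278KY, against 27.0% to 35.0% in Cre WT. All other replication-dependent genes, which include Hist1h2be, were summed as well. They made 77.2 to 102 CPM in Cre P278KY, against 79.8 to 187 CPM in Cre WT, and these ranges overlapped. Within set 1 they did not overlap, as Cre WT 1 and 2 held 126 and 187 CPM, and the lowest value was that of Cre WT 3 of set 2. The whole class summed to 98.4 ± 12.9 CPM in Cre P278KY (SD, n = 3) and 184 ± 55.6 CPM in Cre WT (SD, n = 4). Within set 1 the class sums were 87.3 to 113 CPM in Cre P278KY, against 193 and 256 CPM in Cre WT. Between 45 and 49 of its genes had a read in each Cre P278KY library, against 47 to 56 in each Cre WT library.

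**Figure D3:**
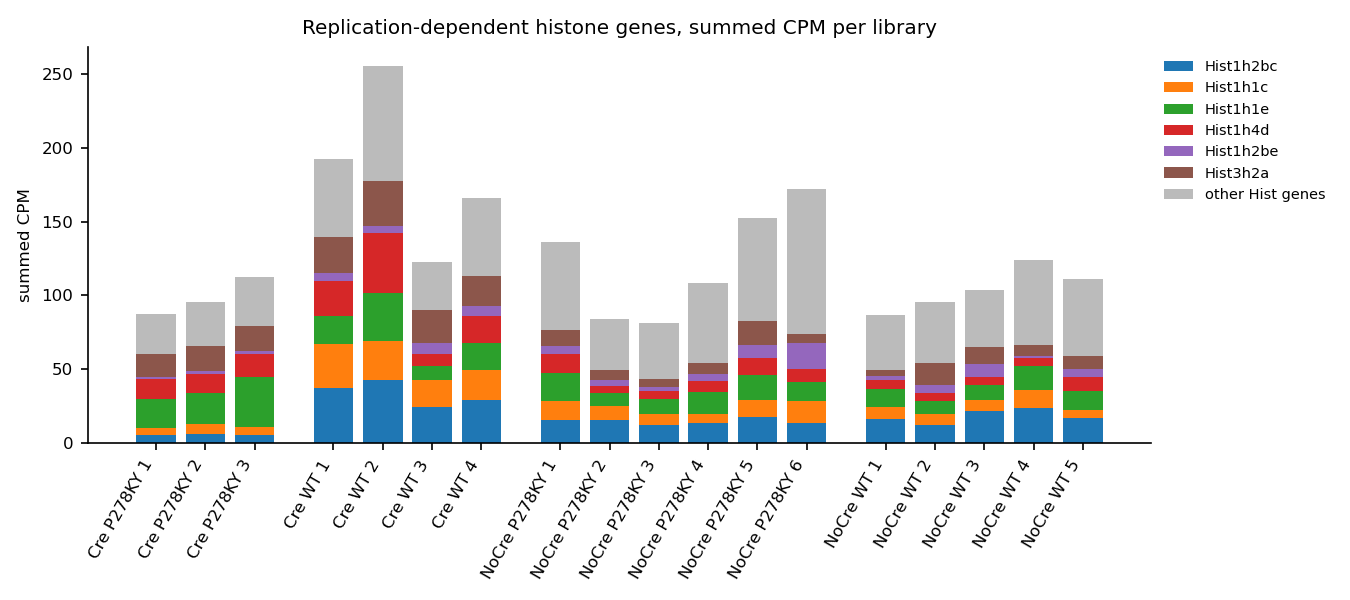
Summed CPM of replication-dependent histone genes in each of the 18 libraries, stacked by gene, with all other Hist genes in grey. The share of Hist1h1c and Hist1h2bc is 9.50% to 13.3% in the Cre P278KY libraries and 27.0% to 35.0% in the Cre WT libraries.

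The 3 genes lie in the large histone cluster on chromosome 13, among members that did not pass the test. On GRCm38, Hist1h1c spans chr13:23738808-23740367 on the plus strand, Hist1h2bc chr13:23684199-23692908 on the plus strand, and Hist1h2be chr13:23583670-23621124 on the minus strand. Measured from the midpoint of Hist1h1c, the midpoint of Hist1h2bc lay at -51.0 kb and that of Hist1h2be at -137.2 kb. Hist1h1e, whose locus at chr13:23620629-23622558 overlaps that of Hist1h2be on the same strand, did not pass the test, and neither did Hist1h4d at -157.4 kb or Hist1h4c at -41.5 kb. Because of that overlap, reads of the 5′ end annotated for Hist1h2be and reads of Hist1h1e can be hard to assign.

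**Figure D4:**
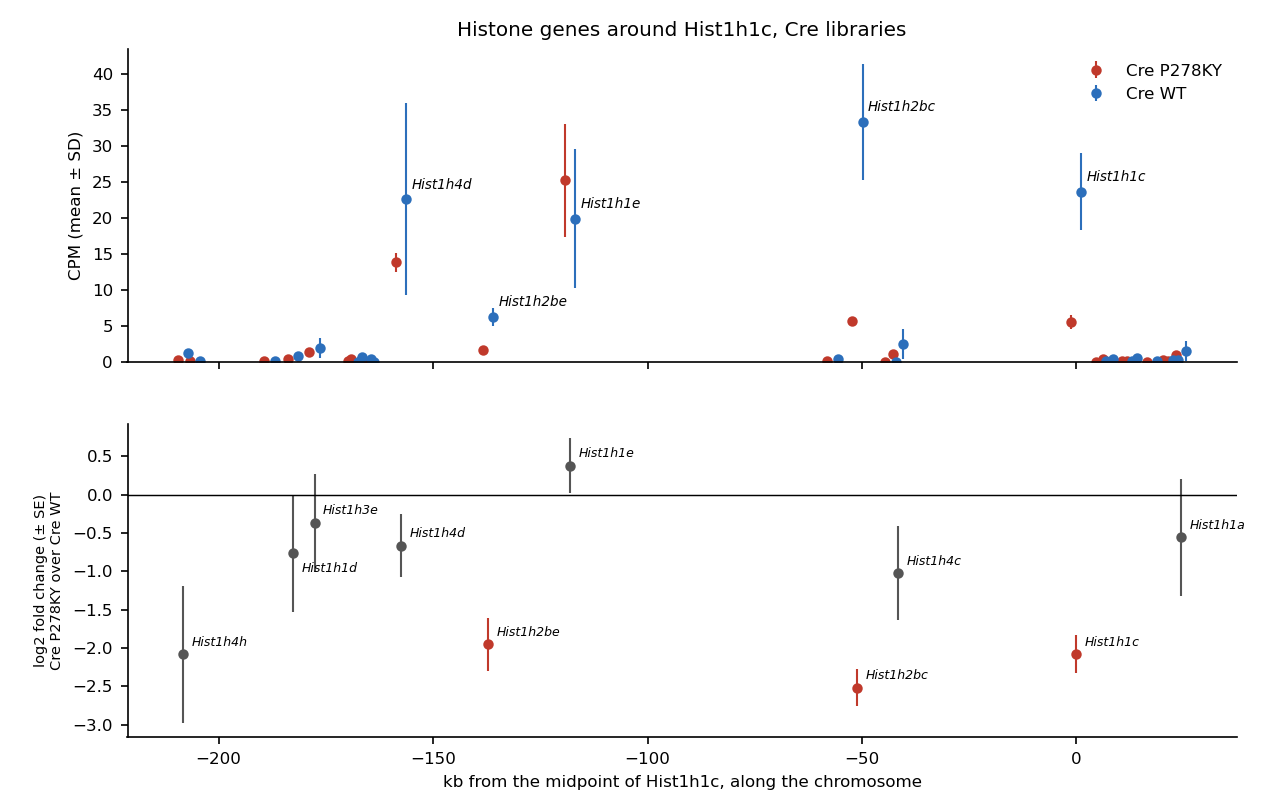
Levels in the Cre P278KY and Cre WT libraries (upper panel, mean CPM ± SD, points of the groups set slightly apart sideways) and log2 fold change of Cre P278KY over Cre WT (lower panel, ± SE, red where the test was passed) against distance in kb from the midpoint of Hist1h1c. The upper panel has the members placed in the plotted stretch and the lower panel those tested. Hist1h1c at 0, Hist1h2bc at -51.0 kb and Hist1h2be at -137.2 kb have the low fold changes that passed, with Hist1h1e at -118.0 kb and Hist1h4d at -157.4 kb between and beside them.

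Among variant genes, H2afz, which encodes H2A.Z, a histone placed at promoters, had 217, 194 and 241 CPM in Cre P278KY, against 211, 266, 129 and 149 CPM in Cre WT. The groups overlapped, and the log2 fold change was 0.24 (SE 0.23, adjusted p = 0.672). H2afy, which encodes a macroH2A linked to silent chromatin, had 19.9, 17.7 and 22.4 CPM in Cre P278KY, against 15.1, 13.2, 13.1 and 15.0 CPM in Cre WT. These groups did not overlap, but the log2 fold change of 0.52 (SE 0.20) had an adjusted p of 0.223. H2afy2, the other macroH2A, had 9.85, 10.4 and 14 CPM, against 10.8, 10.8, 7.80 and 8.05 CPM in Cre WT, with overlap (adjusted p = 0.546).

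H2afx, whose protein is phosphorylated at DNA breaks, had 43.1, 40.7 and 37.5 CPM in Cre P278KY, against 65.3, 77.2, 29.2 and 47.1 CPM in Cre WT. All Cre P278KY libraries lay between the highest and lowest Cre WT libraries (log2 fold change -0.39, SE 0.28, adjusted p = 0.546). H1f0, the linker histone of cells that have stopped dividing, had 45.8, 49.5 and 60.3 CPM, against 64.8, 80.7, 44.2 and 55.2 CPM in Cre WT, with a log2 fold change of -0.21 and a 95% interval of -0.62 to 0.21 (adjusted p = 0.690). Its interval does not reach the change of Hist1h1c. H1fx, a further linker histone, had 4.55, 3.39 and 5.56 CPM, against 3.11, 5.03, 0.762 and 1.68 CPM in Cre WT (log2 fold change 0.84, SE 0.53, adjusted p = 0.488).

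Both genes of replacement histone H3 overlapped between the Cre groups. H3f3a had 23.5, 30.1 and 25.6 CPM in Cre P278KY, against 24.2, 31.6, 51.2 and 41.0 CPM in Cre WT (log2 fold change -0.47, SE 0.27, adjusted p = 0.436). H3f3b had 58.5, 35.8 and 63.7 CPM, against 48.4, 55.3, 28.6 and 42.8 CPM in Cre WT (log2 fold change 0.30, SE 0.26, adjusted p = 0.635). H2afv, the other gene that encodes an H2A.Z, stayed between 5.18 and 5.78 CPM in Cre P278KY and 4.54 and 6.19 CPM in Cre WT. Together the variant genes made 440 ± 45.2 CPM in Cre P278KY (SD, n = 3) and 431 ± 109 CPM in Cre WT (SD, n = 4).

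**Figure D5:**
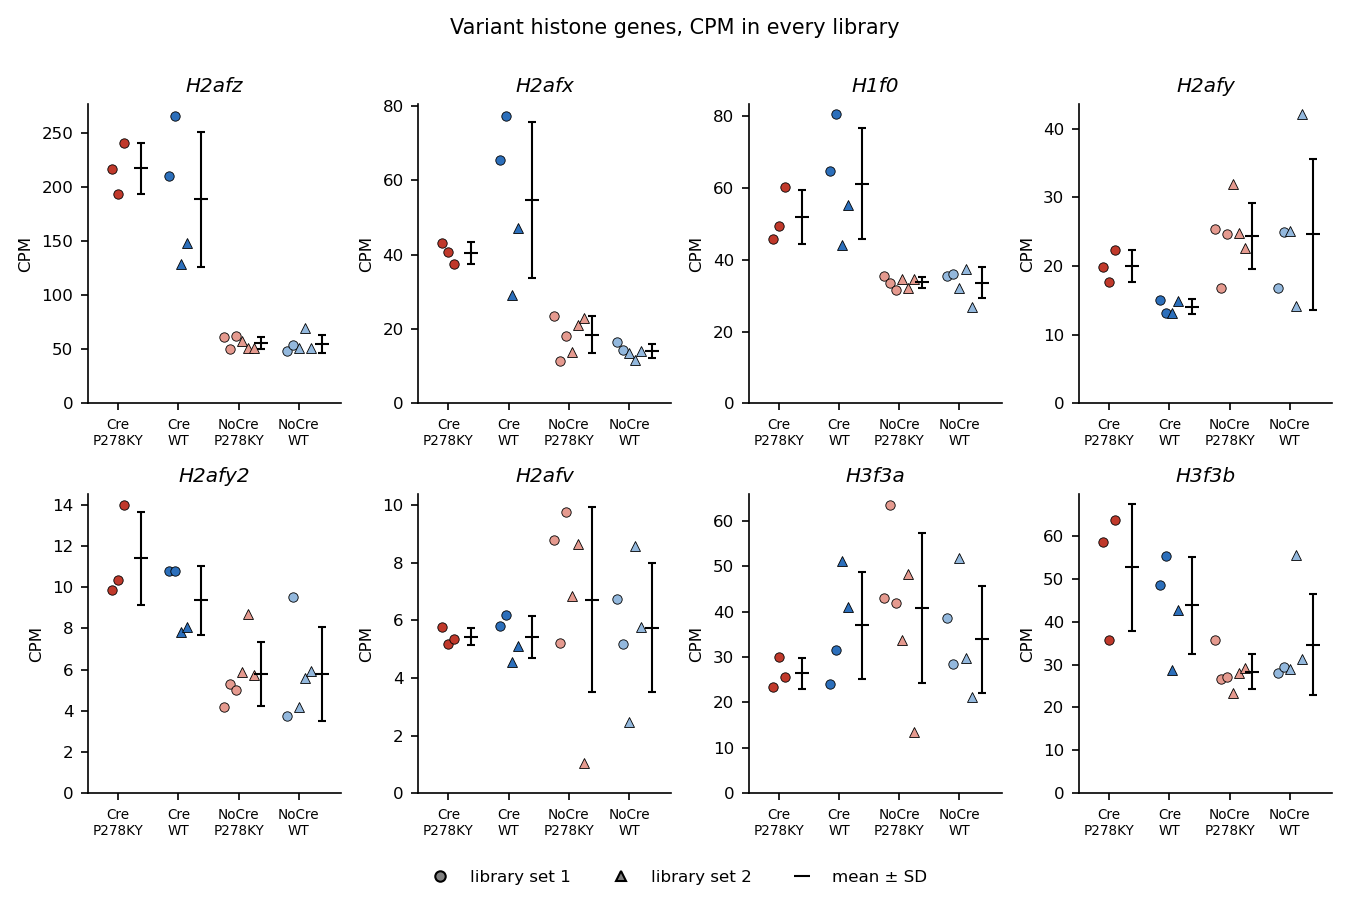
Levels of 8 variant histone genes in each library (CPM, TMM scaling), with the groups from left to right as Cre P278KY, Cre WT, NoCre P278KY and NoCre WT, circles for set 1, triangles for set 2 and bars for the mean ± SD. H2afz lies at 129 to 266 CPM in the 7 Cre libraries and at 48.8 to 69.9 CPM in the 11 NoCre libraries, while H2afv overlaps across all 4 groups.

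The comparison of Cre WT with NoCre WT libraries shows which histone RNAs were enriched with the tagged ribosomes. Of 33 replication-dependent genes tested, 8 were higher and 1 lower in Cre WT, and of 11 variant genes 5 were higher and 2 lower, against 59.7% of all 17133 genes called, 28.5% higher and 31.2% lower. Log2 fold changes below 0 were found for 13 of the 33 replication-dependent genes, against 52.7% of all genes. The median log2 fold change was 0.49 for replication-dependent and 0.69 for variant genes, against -0.12 for all genes. Of the 5 higher variants, H2afj (edgeR adjusted p = 0.0483) and H2afy2 (adjusted p = 0.0484) lost their calls under 16 and 18 of 28 other settings. H2afj also turned direction under 1 of the 28.

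H2afz had 211, 266, 129 and 149 CPM in Cre WT, against 48.8, 54.0, 51.0, 69.9 and 51.3 CPM in NoCre WT. The groups did not overlap, and H2afz rose by 1.78 on the log2 scale (SE 0.19, adjusted p = 1.51e-07). H2afx had 65.3, 77.2, 29.2 and 47.1 CPM in Cre WT, against 16.6, 14.4, 13.4, 11.6 and 14.2 CPM in NoCre WT, with no overlap (log2 fold change 1.96, SE 0.26, adjusted p = 1.59e-06). H1f0 had 64.8, 80.7, 44.2 and 55.2 CPM in Cre WT, against 35.6, 36.2, 32.1, 37.5 and 26.8 CPM in NoCre WT, also apart (log2 fold change 0.86, SE 0.18, adjusted p = 0.000373). Within set 1 the log2 fold changes were 2.24 for H2afz, 2.22 for H2afx and 1.04 for H1f0, and within set 2 they were 1.26, 1.53 and 0.62, of which the last did not pass (adjusted p = 0.111).

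Among linker and core histone genes, Hist1h1c had 29.9, 26.3, 18.5 and 20.0 CPM in Cre WT, against 8.12, 7.29, 7.56, 12.2 and 5.48 CPM in NoCre WT. The groups did not overlap, and the log2 fold change was 1.55 (SE 0.28, adjusted p = 8.47e-05). Hist1h2bc had 37.0, 42.8, 24.5 and 29.3 CPM in Cre WT, against 16.5, 12.2, 21.4, 23.9 and 17.0 CPM in NoCre WT. Its groups were just apart, and it rose by 0.88 (SE 0.22, adjusted p = 0.00178). Within set 2 the log2 fold changes were smaller and did not pass, at 1.19 for Hist1h1c (adjusted p = 0.0563) and 0.36 for Hist1h2bc (adjusted p = 0.423), against 1.89 and 1.49 within set 1.

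Hist1h4d had 23.6, 40.4, 8.41 and 18.2 CPM in Cre WT, against 5.85, 5.77, 5.67, 5.58 and 9.59 CPM in NoCre WT, so Cre WT 3 fell among the NoCre libraries (log2 fold change 1.80, SE 0.36, adjusted p = 0.000202). Hist3h2a rose by 1.35 (adjusted p = 0.00143), Hist3h2ba, its H2B neighbour, by 2.08 (adjusted p = 0.0024), and Hist1h1e by 0.72 (adjusted p = 0.0455). The last of these lost its call under 16 of 28 other settings. Hist4h4 went the other way, with 1.43, 0.247, 0.213 and 0.861 CPM in Cre WT, against 4.54, 3.95, 5.07, 18.7 and 9.44 CPM in NoCre WT. All its Cre WT libraries were below all NoCre WT libraries (log2 fold change -3.58, SE 0.68, adjusted p = 0.000148). Hist4h4 also passed within set 1, at -2.25 (adjusted p = 0.026), and within set 2, at -4.38 (adjusted p = 0.00214). Of the others in this paragraph none passed within set 2.

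H2afy and H2afy3 were the lower variants. H2afy had 15.1, 13.2, 13.1 and 15.0 CPM in Cre WT, against 16.8, 24.9, 25.1, 14.1 and 42.2 CPM in NoCre WT, with 1 NoCre library inside the Cre WT range (log2 fold change -0.80, SE 0.26, adjusted p = 0.0108). Without NoCre WT 5, the highest library, it was -0.49 and did not pass (adjusted p = 0.0616), nor did it pass within set 1 or set 2. H2afy3 had no read in any Cre WT library and 43 reads over the NoCre WT libraries, which at a floor of 3 reads over the group makes it at least 26.6-fold lower (adjusted p = 0.000112). The floor covers counting error only.

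In P278KY mice the same comparison, Cre P278KY with NoCre P278KY, called 4 replication-dependent genes higher and 11 lower of 33, and 6 variant genes higher and 1 lower of 11, against 59.4% of all genes called, 28.2% higher and 31.2% lower. The medians were -0.91 and 0.65, against -0.13 for all genes, and 23 of the 33 replication-dependent log2 fold changes were below 0, against 53.0% of all genes. Hist1h2bc had 5.50, 6.20 and 5.35 CPM in Cre P278KY, against 12.5, 14.4 and 17.7 CPM as the lowest, median and highest of the 6 NoCre P278KY libraries. The groups did not overlap, and Hist1h2bc fell by 1.37 on the log2 scale (SE 0.25, adjusted p = 9.8e-05). In the Cre P278KY libraries this RNA was therefore below the level found without tagged ribosomes, whereas in Cre WT libraries it was above it.

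Hist1h1c had 4.60, 6.49 and 5.35 CPM in Cre P278KY, against 6.54, 10.1 and 15.2 CPM as the lowest, median and highest in NoCre P278KY. The groups were barely apart, and the log2 fold change of -0.91 (SE 0.31, adjusted p = 0.0151) was lost when Cre P278KY 1 was left out (adjusted p = 0.0807) and with scaling by library size alone (adjusted p = 0.0793). Hist1h2be had 1.37, 1.51 and 1.92 CPM, against 2.76, 4.99 and 17.6 CPM in NoCre P278KY (log2 fold change -2.14, SE 0.56, adjusted p = 0.00251). Within set 1 the values were -0.79 for Hist1h1c (adjusted p = 0.0167), -1.31 for Hist1h2bc (adjusted p = 7.44e-05) and, smaller than over all libraries, -1.27 for Hist1h2be (adjusted p = 0.0121). Hist1h1b had 0.332, 0.245 and 0.686 CPM, against 1.22, 4.22 and 6.45 CPM (log2 fold change -3.17, SE 0.65, adjusted p = 0.00031), and Hist4h4 fell by 2.75 (adjusted p = 0.00309). Hist2h2be, an H2B gene with a whole-number count in every library, had 2.56, 2.82 and 2.26 CPM, against 4.00, 7.61 and 20.9 CPM in NoCre P278KY (log2 fold change -1.84, SE 0.57, adjusted p = 0.00859).

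The 4 replication-dependent genes that were higher in Cre P278KY were Hist1h1e at a log2 fold change of 0.88 (adjusted p = 0.019), Hist3h2a at 0.90 (adjusted p = 0.0257), Hist1h4c at 1.77 (adjusted p = 0.0299) and Hist1h3e, an H3 gene, at 1.42 (adjusted p = 0.0427). Hist1h1e had 19.9, 21.5 and 34.2 CPM in Cre P278KY, against 8.94, 13.8 and 18.7 CPM as the lowest, median and highest in NoCre P278KY, without overlap. The 2 linker histone genes whose promoters are printed above stood on opposite sides here, Hist1h1c lower and Hist1h1e higher. Without Cre P278KY 3 the log2 fold change of Hist1h1e was 0.61 and did not pass (adjusted p = 0.142). The call of Hist1h4c was lost without Cre P278KY 1 or 3 or NoCre P278KY 1 or 3, and that of Hist3h2a without Cre P278KY 2 or 3 or NoCre P278KY 2 or 3, with adjusted p-values of 0.0529 to 0.0753. Hist1h3e lost its call under 12 of 27 other settings and Hist2h3b, an H3 gene that was lower, under 10 of 27.

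The variants in P278KY mice were led by H2afz, with 217, 194 and 241 CPM in Cre P278KY, against 50.5, 54.6 and 62.5 CPM in NoCre P278KY (log2 fold change 1.96, SE 0.19, adjusted p = 5.07e-08). H2afx had 43.1, 40.7 and 37.5 CPM, against 11.4, 19.5 and 23.5 CPM (log2 fold change 1.14, SE 0.26, adjusted p = 0.00077). Both stood above every NoCre P278KY library. H1fx rose by 2.69 (adjusted p = 0.000981), H3f3b by 0.89 (adjusted p = 0.00359), H2afy2 by 0.97 (adjusted p = 0.00832) and H1f0 by 0.62 (adjusted p = 0.00732). H2afy2 lost its call without Cre P278KY 3 (adjusted p = 0.0514), and H1f0 with scaling by library size alone (adjusted p = 0.147). H2afy3, the lower variant, had 1 read over the Cre P278KY libraries and 67 over the NoCre P278KY libraries (adjusted p = 0.00128).

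Without Cre no histone gene passed the test between the genotypes. Of 33 replication-dependent and 11 variant genes, 0 passed edgeR's test in either direction between NoCre P278KY and NoCre WT, against 0.0233% of all genes, and DESeq2 also called 0. Log2 fold changes below 0 were found for 12 of the 33, against 50.6% of all genes. An unadjusted p under 0.05 was found for 1 replication-dependent and 0 variant genes. Hist1h1c had a log2 fold change of 0.35 with a 95% interval of -0.16 to 0.86 (adjusted p = 0.774), and Hist1h2bc one of -0.30 with an interval of -0.70 to 0.09 (adjusted p = 0.761). Neither interval reaches the change of these genes between the Cre groups. Hist1h2be had a wider interval, from -0.21 to 1.49, around 0.64 (adjusted p = 0.765). In the same comparison 2 of 15 cholinergic motor neuron markers were lower in NoCre P278KY, against 0.0233% of all genes called. In edgeR's test these were Chodl at -2.55 (adjusted p = 5.96e-05) and Chat at -1.45 (adjusted p = 0.034). The NoCre libraries also enter the interaction below.

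The difference between the genotypes' Cre enrichment was tested as an interaction. It passed for Hist1h2bc at a log2 value of -2.25 (SE 0.33, adjusted p = 0.000926) and Hist1h1c at -2.46 (SE 0.42, adjusted p = 0.00427), the only 2 of 33 replication-dependent genes, against 0.654% of all genes called and 0.309% called lower. Of the 33 values 28 were below 0, against 51.5% of all genes, and their median was -1.27, against -0.02. Marker lists of other cells also had medians below 0, some of them small. The median was -1.60 for oligodendrocyte markers, with 9 of 14 at an unadjusted p under 0.05, and -1.22 for their precursors (5 of 8). It was -1.26 for ependymal (2 of 8), -1.08 for astrocyte (3 of 12) and -3.02 for skeletal muscle markers (1 of 10). Vascular markers had -0.76 (4 of 12), blood markers -0.70 (0 of 8) and microglial markers -0.21 (2 of 14). No marker of these lists passed, and their part in the histone values was not tested. Hist1h2be had a value of -2.60 but an SE of 0.72, and did not pass in edgeR (adjusted p = 0.108). In DESeq2 it passed, at -2.615 (adjusted p = 0.0187). Hist1h1e had 0.16 with an interval of -0.71 to 1.02. None of the 11 variants passed in edgeR or DESeq2, with 1 at an unadjusted p under 0.05 and a median of 0.18. Within set 1 the values were -2.81 for Hist1h2bc (adjusted p = 0.000418) and -2.68 for Hist1h1c (adjusted p = 0.00278). With scaling by library size alone neither passed, at -2.52 for Hist1h2bc (adjusted p = 0.0644) and -2.70 for Hist1h1c (adjusted p = 0.0609). The 4 group comparisons share libraries with each other, so the values for a gene are given side by side and not as separate evidence.

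Levels of different genes can be set side by side only per length, in transcripts per 1000000 (TPM). H2afz was the most abundant histone RNA in both Cre groups, with a median of 346 TPM in Cre P278KY and 277 TPM in Cre WT. Hist1h4d came next in both, with 79.4 TPM in Cre P278KY and 115 TPM in Cre WT. TPM rests on the gene lengths in the deposited tables, which for Hist1h4d and Hist1h1e were far shorter than in M21. That of Hist1h2bc was 736 bases, against 1156 in M21. The ranks of these genes depend on the length used. Hist1h2bc held rank 10 with 13.5 TPM (9.92 to 20.0) in Cre P278KY, against rank 3 with 75.6 TPM (65.6 to 95.7) in Cre WT. In Cre WT its neighbours Hist1h4d (81.7 to 148 TPM) and H3f3a (29.8 to 147 TPM) overlapped it, so that rank is not set apart from theirs. Hist1h1e ranked 3 with 62.5 TPM (48.0 to 68.0) in Cre P278KY and 6 with 42.4 TPM (33.5 to 52.7) in Cre WT. In the NoCre groups H2afz and H3f3a led, with medians of 104 and 97.7 TPM in NoCre P278KY and 76.8 and 46.9 TPM in NoCre WT.

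Genes of histone mRNA 3′ end formation were followed as a list of 15. None passed between the Cre groups, and 1 had an unadjusted p under 0.05. That gene was Lsm11, a subunit of the U7 particle that directs cleavage after the stem-loop, with 33.5 ± 8.07 CPM in Cre P278KY (SD, n = 3) and 81.0 ± 28.2 CPM in Cre WT (SD, n = 4), and its log2 fold change was -1.26 (SE 0.34, adjusted p = 0.0984). Between Cre WT and NoCre WT 6 were higher and 3 lower, against 59.7% of all genes called, with Slbp at 1.48 (adjusted p = 8.57e-05), Lsm11 at 1.72 (adjusted p = 3.08e-05) and Zfp473, a U7-associated zinc finger protein, at -2.46 (adjusted p = 0.000192). Between Cre P278KY and NoCre P278KY 7 were higher and 4 lower, against 59.4% of all genes called, with Slbp at 1.29 (adjusted p = 0.000387).

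Of 29 histone chaperone and exchange genes, 27 were tested between the Cre groups and none passed, with 7 at an unadjusted p under 0.05. Nearest were Ssrp1 and Supt16, the subunits of the chaperone FACT, at log2 fold changes of 0.71 (adjusted p = 0.0754) and 0.69 (adjusted p = 0.0835). Against the NoCre libraries 12 were higher and 9 lower in Cre WT, against 59.7% of all genes called, and 15 higher and 7 lower in Cre P278KY, against 59.4%. The histone chaperones Nap1l3 and Nap1l1 were higher in Cre WT by 2.30 (adjusted p = 8.08e-09) and 1.81 (adjusted p = 8.79e-08).

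Genes of S phase and the cell cycle, 25 in all, give the background of dividing cells. Between the Cre groups 20 were tested and none passed, with 3 at an unadjusted p under 0.05, and their summed levels were 108 to 116 CPM in Cre P278KY, against 108 to 137 CPM in Cre WT. The sums without Cre were 142 to 281 CPM in NoCre P278KY and 120 to 242 CPM in NoCre WT. In each genotype 3 were higher and 10 lower with Cre, against 59.7% of all genes called in WT and 59.4% in P278KY mice, with Top2a, a topoisomerase of dividing cells, at -2.35 in Cre WT over NoCre WT (adjusted p = 0.000243) and -2.96 in Cre P278KY over NoCre P278KY (adjusted p = 9.64e-05). RNAs without a poly(A) tail summed to 2.04 to 4.80 CPM in Cre P278KY and 2.47 to 8.66 CPM in Cre WT, against 11.7 to 21.8 CPM in NoCre P278KY and 13.9 to 66.2 CPM in NoCre WT. Of 13 such RNAs listed 10 are in the files, and 8 of these had no read in Cre P278KY and 7 none in each of the other groups, so the sums rest on few RNAs. Hist4h4 was lower with Cre in both genotypes, as these sums were, and Hist1h1b was called lower in P278KY mice only. Called replication-dependent genes went both ways, with 8 higher and 1 lower in Cre WT and 4 higher and 11 lower in Cre P278KY. All genes were called at 59.7% and 59.4%. The part of the missing poly(A) tail in these values was not tested.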

How the data were processed

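Ribosome-associated RNA of 18 mouse spinal cords was sequenced. Each library has a table in which the authors gave every gene an expected count (depth 8177837 to 24028692 per library) and a TPM value; per the file headers these are RSEM output. The submitters' processing notes name Bowtie2 2.2.0 with RSEM 1.2.12. The build, annotation, strand and library kit were not given in the sources used here. Genotype labels gave the 4 groups. Titles carry 7 different numbers over the 18 libraries, some shared within a group, whose meaning is not given, so p-values measure only the spread between these libraries. Expected counts were rounded. CPM are TMM-scaled over all 18 libraries, and the deposited TPM served only to compare levels between genes.

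Tests were edgeR 4.0.16 quasi-likelihood tests in R 4.3.3 (filterByExpr, TMM, robust), two-sided, with Benjamini-Hochberg adjustment over all genes tested and a threshold of 0.05. Cre P278KY against Cre WT used the 7 Cre libraries, and the other comparisons 1 fit of all 18. Alternatives were DESeq2 1.42.0, other scalings and filters, library set, title number and leaving out libraries. The scripts were tested on simulated data with known changes. Between the Cre groups 8% of 2-fold and 63% of 4-fold changes were recovered. The interaction test recovered 2% and 38%, and the test between the NoCre groups 27% and 75%. The Cre enrichment tests recovered 13% and 68% in WT and 17% and 56% in P278KY mice. A gene that did not pass can therefore still differ between the groups. Named genes were all tested variants and replication-dependent genes averaging at least 1 CPM in a group. Full statistics go to up to 6 genes of each class with the smallest adjusted p per comparison, and further members are given for their family or locus, chosen after their values were seen. The members, lists and tests were chosen with earlier results of these data known. Of the other marker lists, microglial, precursor, ependymal and blood markers had 0 calls between the Cre groups. Their median log2 fold changes were -0.10, -0.93, -0.66 and -0.82. Reads were amplified by PCR and need not stand for separate molecules, so the read floor covers counting error only.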

Additional observations from a re-analysis of the deposited data

Results flagged for a closer look

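A library far from the others of its group was found for 11 of the 107 gene and group pairs checked, where chance gives about 1 in 20 (5%). In NoCre P278KY 6, 3 genes stood high, with Hist2h2be at 20.9 CPM (the others 4.00 to 9.12), Hist2h3c1 at 12.2 CPM (1.51 to 5.28) and Hist4h4 at 11.3 CPM (2.85 to 4.94). In NoCre WT 4, 4 genes stood high, with H2afz at 69.9 CPM (48.8 to 54.0), H3f3b at 55.6 CPM (27.9 to 31.4), H1fx at 2.99 CPM (0.398 to 0.761) and Hist1h4h at 1.79 CPM (0.0 to 0.437). H2afy2 was high in NoCre P278KY 5 at 8.72 CPM (4.20 to 5.87), Hist1h4d in NoCre WT 5 at 9.59 CPM (5.58 to 5.85) and Hist1h2br, an H2B gene, in NoCre WT 2 at 2.73 CPM (0.304 to 0.996). Hist1h1b was low in NoCre WT 3 at 0.895 CPM (2.39 to 2.59). All 11 lay in NoCre libraries. The groups of 3 Cre P278KY libraries were too small to be checked.

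The Cre enrichment differed between the genotypes for 2 genes, by the interaction test in edgeR: Hist1h1c at -2.46 (adjusted p = 0.00427) and Hist1h2bc at -2.25 (adjusted p = 0.000926) on the log2 scale.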

How the results depend on the processing

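Between Cre P278KY and Cre WT, the count of replication-dependent genes called was 3. It was 7 (1 higher, 6 lower) with library set as covariate and within library set 1, and 2 to 3 when single libraries were left out. The count of variant genes was 0, and it was 1 with library set as covariate, 2 within set 1, 3 (2 higher, 1 lower) with title number as replicate block, and 0 with any single library left out. Between Cre WT and NoCre WT within set 2, which has 2 and 3 libraries, the counts were 1 and 3 rather than 9 and 7, and leaving out single libraries gave 6 to 12 and 5 to 8. Between Cre P278KY and NoCre P278KY leaving out single libraries gave 10 to 17 and 6 to 8, around 15 and 7. The 2 interaction calls became 0 with scaling by library size alone and 4 within set 1, and stayed 2 with any single library left out. The NoCre counts were 0 throughout. The causes were not tested.

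Direction turned between the Cre groups for H2afz (-0.0563 with library set as covariate and -0.0568 within set 1) and, with the replicate block, for Hist1h4d (0.0651), H2afx (0.0488) and H1f0 (0.0595), none of them called, and for H2afj in Cre WT over NoCre WT within set 2 (-0.16). The number in the titles did not pair libraries across groups: deviations of same-numbered libraries of different groups correlated at -0.123 to 0.176, with a median of -0.0104 (12 pairs). Libraries that share a number within a group were not compared. Calls moved by that replicate block, such as Hist1h1c in Cre P278KY over NoCre P278KY (-0.55, adjusted p = 0.252), are given here alone. Of 1204 values under alternatives, over the 48 single-gene results recomputed, 1076 kept their direction and their side of the threshold, 117 lost the call, 5 gained it and 6 turned. Scaling by library size alone moved the median of all genes between Cre WT and NoCre WT to 0.20, against -0.12 with TMM. Set 2 holds no Cre P278KY library, so those comparisons have no value there. NoCre libraries hold fewer reads than Cre libraries, and reads shared between histone genes limit the members whose counts were not whole.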
